A study of Mus musculus with 2 samples.

Results

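Reelin, its receptors and adaptor, factors of Cajal-Retzius cells, and the chemokine Cxcl12 with its receptor were followed in late embryonic mouse cortex with and without Sox11. The set holds 10 genes: Reln, Trp73, Calb2, Lhx1, Lhx5, Vldlr, Lrp8, Dab1, Cxcr4 and Cxcl12. Its members were chosen by name, and every probe set whose platform annotation names only 1 of these genes was taken, which gave 26 of the 34945 probe sets that name a single gene, and 10 of 18193 genes. RNA from the cerebral cortex of 1 Sox11(-/-) embryo was set against that of 1 Sox11(+/+) littermate. Both were collected at E17.5, late in embryonic development, from a cross of Sox11(+/-) parents on a mixed C57BL/6 and 129 background, and tail DNA was genotyped by PCR, per the labels. Sox11 codes for a DNA-binding protein of the SoxC group, and the study set out to find its molecular role in cortical development. Each genotype has 1 array of 1 embryo, so each difference below is one between 2 libraries, with no replicate check and no p-value.

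Cajal-Retzius cells are early-born neurons of the outermost layer of the cortex. They secrete reelin, a large glycoprotein that binds the receptors Vldlr and Lrp8 (also called ApoER2) on migrating neurons and leads to tyrosine phosphorylation of the adaptor Dab1 inside those cells, and mice without reelin, without Dab1 or without both receptors have disordered cortical layers. The transcription factors p73 (Trp73), Lhx1 and Lhx5 and the calcium-binding protein calretinin (Calb2) mark Cajal-Retzius cells, while Cxcl12 from the meninges holds cells that carry Cxcr4 near the brain surface. None of these genes belongs to Cajal-Retzius cells alone: Reln, Calb2 and Cxcr4 are also expressed by cortical interneurons, and Cxcl12 and Cxcr4 by cells of blood vessels.

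The arrays had medians of 177.4 (Sox11 null) and 177.5 (wild type) signal units over 45037 probe sets, and the log2 signals of 12390 measured genes correlated with r = 0.970 (Pearson, across genes, which are not independent replicates). A gene or probe set counted as measured when its signal reached the array median on at least 1 array. The targeted gene had less signal in the Sox11-null library with 6 of 6 Sox11 probe sets, which kept 16.4% to 47.8% of the wild-type signal. Xist, the RNA of the inactive X chromosome, was at 155 in the Sox11-null library and 17505 in the wild-type library, and the Y-linked gene Uty at 617 and 21.8. By these genes the Sox11-null embryo was male and the wild-type embryo female. All 10 members lie on autosomes, but a difference of sex cannot be told apart from a difference of genotype here. As a measure of RNA integrity, the 3' signal of the beta-actin control over its 5' signal was 1.16 in the Sox11-null and 1.78 in the wild-type library. Both libraries held cortical neuron genes (Neurod6 at 2723 and 3019 in Sox11 null and wild type) as well as skeletal muscle genes (Acta1 at 23519 and 23182) and epidermal genes, although the label is cortex. A member's signal therefore need not come from cortical cells alone, and fewer cells of a type cannot be told apart from less RNA per cell.

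Most members differed little between the libraries, with Trp73, Reln and Lrp8 lower and Cxcr4 higher in the Sox11-null library by the largest margins. Signals were compared as log2 differences, Sox11 null minus wild type, after centring the median difference of all measured genes on 0 and raising values below the 25th percentile of each array to that floor. Of the 26 probe sets, 17 were measured, and these stood for 9 of the 10 genes, with Lhx5 below the median on both arrays. By the brightest probe set of each gene, 1 of the 9 measured genes, Trp73, was at least 1.5-fold lower in the Sox11-null library. That compares with 3.24% of all measured genes, and with 6.80% in the lowest of 3 equal groups by level, which holds Trp73. Trp73 counted as measured through its wild-type signal alone. None of the 9 was at least 1.5-fold higher, against 3.07% of all measured genes. Over the 17 measured probe sets the counts were 1 lower and 0 higher, against 3.48% lower and 7.26% higher among all 20669 measured probe sets that name 1 gene. The median log2 difference was -0.019 over the 9 genes, against 0 over all measured genes by construction, and -0.12 over the 17 probe sets, against 0.027 over all measured probe sets.

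**Figure D1:**
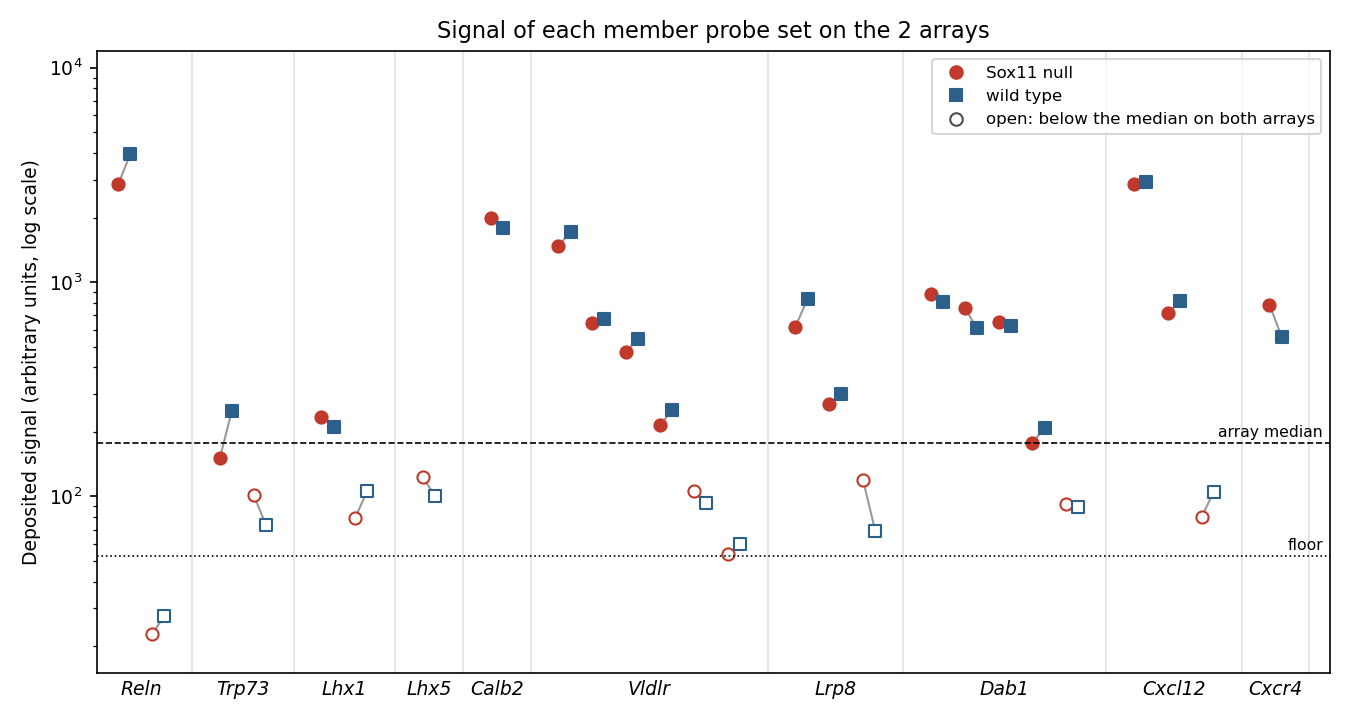
Deposited signal of each of the 26 member probe sets (vertical axis, log scale, arbitrary units), ordered within each gene by brightness, with the Sox11-null array as circles on the left of each pair and the wild-type array as squares on the right. Open symbols lie below the median of both arrays, the dashed line is the wild-type array median (177.5) and the dotted line the wild-type floor (52.9). Reln stands at 2858 in Sox11 null and 3955 in wild type with 1 probe set and under the floor with the other.

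Reln, the ligand, was lower in the Sox11-null library. Its bright probe set, 1449465_at, gave 2858 in Sox11 null and 3955 in wild type, so the Sox11-null signal was 72.3% of the wild-type signal and the log2 difference was -0.45. Among the 4130 measured genes of the highest of 3 equal groups by level, 110 (2.66%) were at least as low, and the central 95% of that group ran from -0.46 to 0.45. Reln thus lay just inside the range of most genes of similar level. The other probe set, 1458020_at, gave 22.7 in Sox11 null and 27.7 in wild type, under the floor on both arrays, and gives no fold.

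The 250 bases before the annotated start of Reln, on the minus strand at chr5:22344706-22344955 of GRCm38.p6 (RefSeq), are shown because Reln is the ligand on which the pathway turns and the missing protein binds DNA. It is 80% G or C, more than 98.8% of 32851 RefSeq promoters of that length (median 52.4%). Capitals mark the GC box GGGCGG, a word bound by Sp1 factors, or its reverse complement CCGCCC, which starts at 6 places and is found in 32.7% of all promoters.
Reln: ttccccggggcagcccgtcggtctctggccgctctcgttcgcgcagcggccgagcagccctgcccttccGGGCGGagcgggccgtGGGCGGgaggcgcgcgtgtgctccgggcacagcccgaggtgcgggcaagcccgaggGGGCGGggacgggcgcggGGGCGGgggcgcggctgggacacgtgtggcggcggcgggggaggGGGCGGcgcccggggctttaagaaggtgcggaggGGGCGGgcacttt
The Sox core word AACAAT, searched on both strands, is in none of the 13 windows that RefSeq gives for 8 of the members, against 9.42% of all promoters. That says only that these letters are not in those 250 bases.

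Among the Cajal-Retzius factors, Trp73 was lower and Lhx1 and Calb2 slightly higher in the Sox11-null library. Trp73 encodes p73, a relative of the tumour suppressor p53 that Cajal-Retzius cells need. Its probe set 1452325_at gave 151 in Sox11 null, under the array median, and 251 in wild type, a 1.65-fold lower signal (log2 difference -0.72). In the lowest of the 3 groups by level, 197 of 4130 genes (4.77%) were at least as low, and the central 95% ran from -0.94 to 0.82. The other probe set, 1427697_a_at, went the opposite way with 101 in Sox11 null and 73.9 in wild type (0.47), and it lay below the median on both arrays. The probe sets of Trp73 therefore do not share a direction, and averaging them gave -0.12.

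Trp73 has more than 1 start in RefSeq, and transcripts from the upstream start and from the internal start encode proteins with and without the N-terminal transactivation domain. The 250 bases before an outer and an internal start are shown because the probe sets of the gene disagree, although which transcripts each probe set reads was not analysed here. Both windows are on the minus strand of GRCm38.p6 (RefSeq), the outer at chr4:154139876-154140125 and the internal at chr4:154097174-154097423, and capitals mark GC boxes as above.
Trp73 outer start: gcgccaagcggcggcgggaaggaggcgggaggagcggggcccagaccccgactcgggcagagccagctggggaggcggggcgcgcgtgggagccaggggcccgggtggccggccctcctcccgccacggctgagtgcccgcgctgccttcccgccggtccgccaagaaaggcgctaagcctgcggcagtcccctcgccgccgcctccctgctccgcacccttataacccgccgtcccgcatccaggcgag
Trp73 internal start: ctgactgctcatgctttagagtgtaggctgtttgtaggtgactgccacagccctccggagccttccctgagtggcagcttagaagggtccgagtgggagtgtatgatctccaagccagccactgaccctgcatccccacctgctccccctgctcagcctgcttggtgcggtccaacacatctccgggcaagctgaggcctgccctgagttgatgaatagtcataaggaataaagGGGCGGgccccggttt
The outer window is 77.2% G or C and holds no GC box, and the internal window is 58.4% G or C and holds 1, starting 16 bases before the start site.

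Calb2 was at 1989 in Sox11 null and 1787 in wild type with its single probe set (0.17), and 736 of 4130 genes of its level group (17.8%) had at least that difference. Lhx1, a LIM-homeodomain factor, was at 236 and 212 in Sox11 null and wild type with 1450428_at (0.17). Its dimmer probe set, 1421951_at, gave 79.6 in Sox11 null and 106 in wild type (-0.40) and lay below the median on both arrays. Lhx5, a close relative of Lhx1, was at 122 in Sox11 null and 100.3 in wild type (0.31) with its 1 probe set, also below the median. Of the 4 factors, then, only Trp73 had a probe set beyond 1.5-fold, and the factors did not move in 1 direction.

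**Figure D2:**
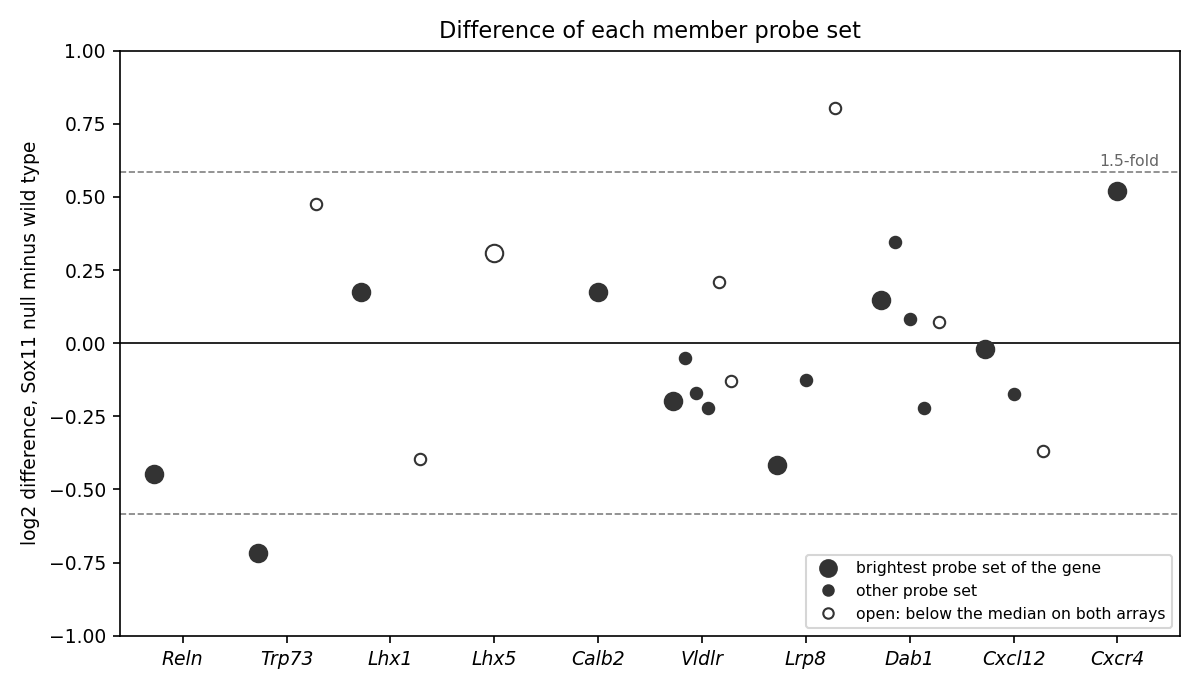
Log2 difference, Sox11 null minus wild type, of each member probe set (vertical axis) by gene, with large points for the brightest probe set of a gene, small points for the others and open points for probe sets below the median on both arrays. Dashed lines mark 1.5-fold, and the Reln probe set at the floor on both arrays is not drawn. Only the bright Trp73 probe set (-0.72) and a dim Lrp8 probe set (0.81) lie beyond the lines.

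Both reelin receptors were slightly lower in the Sox11-null library with every measured probe set. Vldlr, the very-low-density lipoprotein receptor, was lower with 4 of 4 measured probe sets. The brightest, 1434465_x_at, gave 1473 in Sox11 null and 1713 in wild type (-0.20). The signals with 1435893_at were 641 in Sox11 null and 674 in wild type (-0.052), with 1417900_a_at 474 and 541 (-0.17), and with 1438258_at 214 and 253 (-0.22). The mean over these 4 was -0.16 ± 0.075 (SD, n = 4 probe sets, a technical spread within 1 pair of RNAs). The pooled SD among measured probe sets of 1 gene was 0.39 over 5155 genes with several. Of its level group, 17.8% of genes were at least as low. The dim probe sets 1442169_at (106 in Sox11 null and 93.2 in wild type, 0.21) and 1451156_s_at (53.9 and 59.7, -0.13) lay below the median.

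Lrp8, the second receptor, was lower with its 2 measured probe sets and higher with its dimmest. The brightest, 1442347_at, gave 618 in Sox11 null and 836 in wild type (-0.41, 1.33-fold lower), and 180 of 4130 genes of the middle level group (4.36%) were at least as low. The next, 1440882_at, gave 271 in Sox11 null and 299 in wild type (-0.12). The dimmest, 1421459_a_at, gave 119 in Sox11 null and 68.8 in wild type (0.81), below the median on both arrays. With all probe sets of Lrp8 averaged its difference was 0.089.

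Dab1, the adaptor that docks on both receptors, did not share their direction. Its brightest probe set, 1435578_s_at, gave 880 in Sox11 null and 806 in wild type (0.15), and 1427308_at gave 760.5 and 607 (0.34). With 1435577_at the signals were 649.7 in Sox11 null and 622 in wild type (0.083). With 1427307_a_at they were 177 and 209 (-0.22), so 3 of 4 measured probe sets were higher in the Sox11-null library and 1 was lower. The mean was 0.089 ± 0.23 (SD over 4 probe sets), an offset smaller than the spread among them. The dim probe set 1421100_a_at was at 92.6 and 89.2 (0.074). Reelin signalling lowers Dab1 as a protein, by Cul5- and Socs7-dependent degradation, and the arrays measured RNA only.

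Cxcl12 was at nearly the same level in both libraries, and its receptor Cxcr4 was higher in the Sox11-null library. For Cxcl12, 1448823_at gave 2852 in Sox11 null and 2930 in wild type (-0.019), and 1417574_at gave 713 and 816 (-0.17). The dim probe set 1439084_at was at 80.5 in Sox11 null and 105 in wild type (-0.37), below the median, so all 3 probe sets were below 0. Cxcr4 had 1 probe set, 1448710_at, with 784 in Sox11 null and 555 in wild type (0.52, 1.43-fold higher). In the middle level group, 151 of 4130 genes (3.66%) were at least as much higher, and the central 95% ran from -0.49 to 0.57. With a single probe set, no second measurement of Cxcr4 was available.

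**Figure D3:**
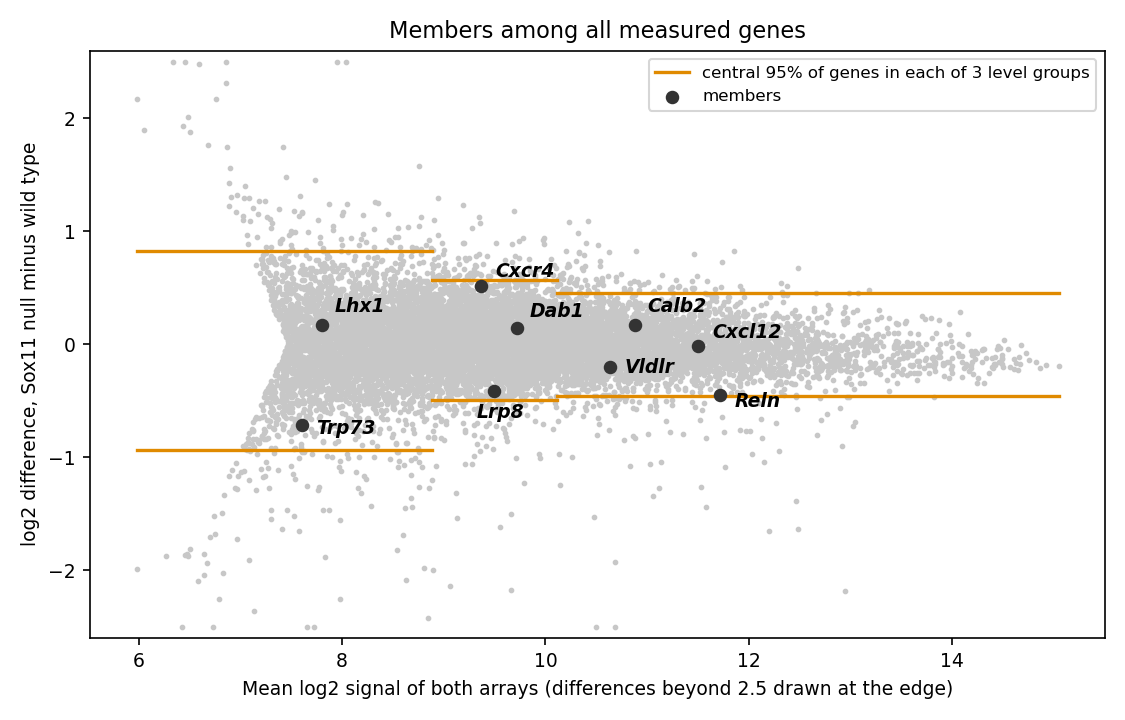
Log2 difference, Sox11 null minus wild type (vertical axis), against the mean log2 signal of both arrays (horizontal axis) for the 12390 measured genes in grey and the 9 measured members in black. Orange lines bound the central 95% of genes in each of 3 level groups, and 11 genes beyond 2.5 are drawn at the edge. All 9 members lie inside the lines, with Reln (-0.45), Lrp8 (-0.41) and Cxcr4 (0.52) nearest to them.

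By the brightest probe set, genes that act with reelin downstream or as further ligands were mostly within 1.5-fold. All 32 listed genes were measured, and 2 were at least 1.5-fold higher in the Sox11-null library, against 3.07% of all measured genes. None was at least 1.5-fold lower, against 3.24% of all measured genes, and the median was 0.054. Thbs1, whose product thrombospondin-1 also binds Vldlr and Lrp8, was at 1086 in Sox11 null and 639 in wild type (0.78), and its other measured probe set gave 1.27. Itgb1, the beta-1 integrin subunit, was at 3522 and 2350 (0.60), with 0.51 and 0.55 by its 2 other measured probe sets. Both genes are expressed by many cell types outside the nervous system. Dimmer measured probe sets of other listed genes also lay beyond 1.5-fold. Most of these were higher in Sox11 null, such as Nck2 (1.38), Pik3r1 (1.08) and Dcx (0.96), while Gsk3b (-0.75) and Nectin3 (-1.09) had lower ones. Across all genes with several, 13.5% of such dimmer probe sets were at least 1.5-fold higher and 3.80% lower. The brightest probe set of Dcx was lower, at 3245 in Sox11 null and 4403 in wild type (-0.42). Other measured probe sets of Pik3r1 (-0.34), Gsk3b (0.23) and Nectin3 (0.28) also had the opposite sign.

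Of the kinases and adaptors that act on Dab1, Fyn (1575 in Sox11 null and 1543 in wild type, 0.050) and Crkl (1270 and 1167, 0.14, but 0.65 by a second measured probe set) were within 1.5-fold, and Src was at 543 and 410 (0.43). Cdk5r1, which encodes the p35 activator of the kinase Cdk5 that acts beside the reelin pathway on migrating neurons, lay at the edge of 1.5-fold with 2411 and 3659 (-0.58). Its 2 other measured probe sets were at 0.018 and 0.71, so Cdk5r1 had no common direction. Pafah1b1, the lissencephaly gene whose product regulates the motor protein dynein in migrating neurons, was at 2791 and 2790 (0.020). The Dab1 degradation genes Cul5 (-0.17) and Socs7 (0.12) were within 1.5-fold. Limk1, a kinase that acts on cofilin, was at 481 and 663 (-0.44), and a second measured probe set gave 0.37.

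Other genes expressed by Cajal-Retzius cells lay on both sides of 0. Of 12 listed genes 10 were measured, 5 with negative and 5 with positive differences by the brightest probe set. Of these, 0 were beyond 1.5-fold either way, against 3.24% lower and 3.07% higher among all measured genes, and the median was 0.033. The factor Ebf2 was at 911 in Sox11 null and 872 in wild type (0.083), with 0.53 and 0.74 by its 2 other measured probe sets. Ebf3 was at 1342 and 1211 (0.17), with 0.39 and 0.61 by the others. Nhlh2 (520 and 542, -0.040), Ndnf (493 and 420, 0.25) and the calcium channel subunit gene Cacna2d2 (604 and 644, -0.072) each had 1 measured probe set. Spock1, a matrix proteoglycan gene, was at 1196 and 1071 (0.18), but at -0.57 by a second measured probe set. Eomes, which intermediate progenitors also express, lay at the edge of 1.5-fold with 525 in Sox11 null and 355 in wild type (0.58), and its other measured probe set gave 1.25. The factor genes Emx2 (434 in Sox11 null and 514 in wild type, -0.22), Tbr1 (-0.18) and Ebf1 (-0.018) were below 0. Zic2 (75.7 and 135, -0.82) lay below the median on both arrays, and Barhl2 was under the floor on both. Ebf factors and several others on this list are also expressed in tissues outside the brain. Across all genes with several, 13.5% of the dimmer measured probe sets were at least 1.5-fold higher in Sox11 null and 3.80% lower. The higher values of the dimmer Ebf2, Ebf3 and Eomes probe sets are therefore not taken as separate support for a difference. Whether they go beyond this general share was not tested.

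The wider Cxcl12 axis was within 1.5-fold by the brightest probe sets. Of 12 listed genes 10 were measured, and the median was 0.026. Of these, 0 were beyond 1.5-fold, against 3.24% lower and 3.07% higher among all measured genes. The scavenger receptor gene Ackr3 was at 1151 in Sox11 null and 1261 in wild type (-0.11). Dpp4, whose product cleaves Cxcl12, was at 245 and 206 (0.27), and a second measured probe set gave -0.67. The arrestin gene Arrb2 was at 560 and 691 in Sox11 null and wild type (-0.28), and a second measured probe set gave 0.45. The G protein subunit genes Gnai1 (-0.25), Gnai2 (-0.16) and Gnai3 (0.11) lay on both sides of 0. Other measured probe sets of each had the opposite sign, beyond 1.5-fold for Gnai1 (up to 1.27) and Gnai3 (-0.63). Grk3 was at 0.19, with 0.89 and 1.01 by its 2 other measured probe sets, and Cxcl14 at 0.17, with -0.69 by another.

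**Figure D4:**
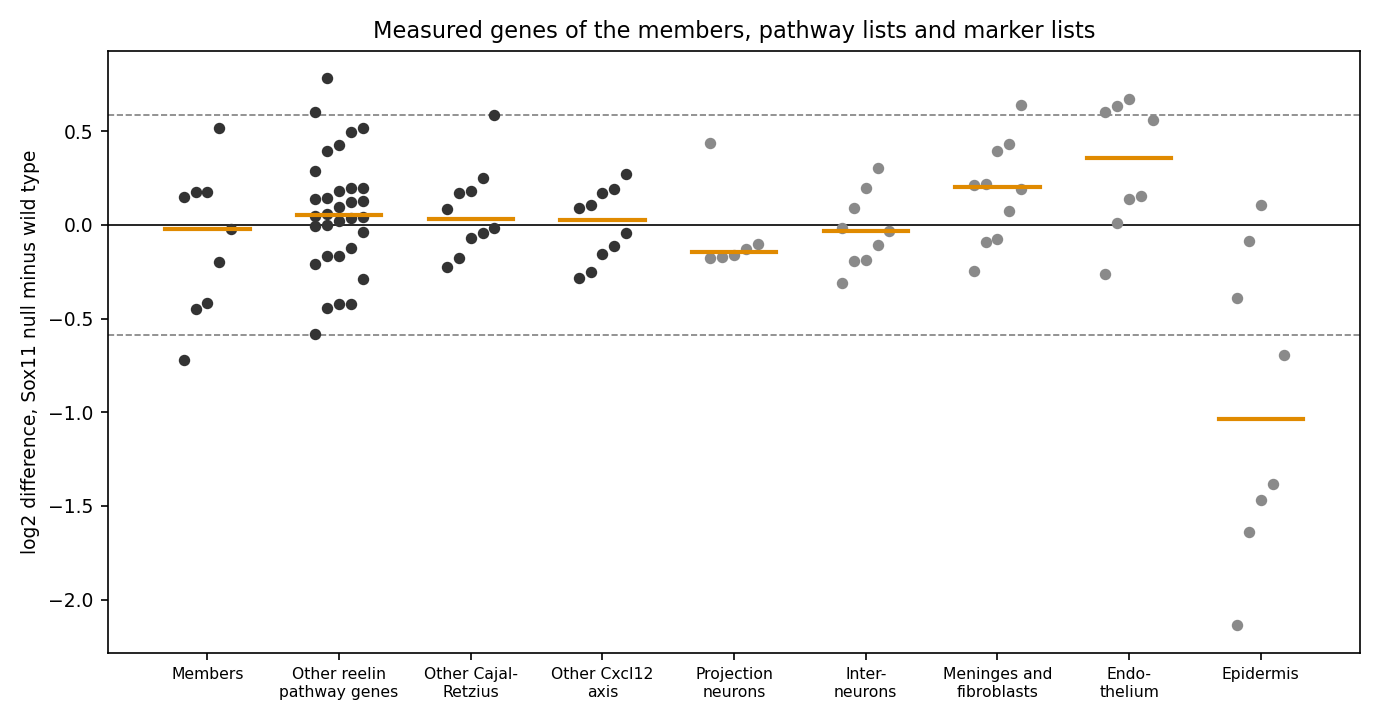
Log2 difference, Sox11 null minus wild type (vertical axis), of each measured gene in the members, 3 lists of related genes (black) and 5 lists of cell type markers (grey), by the brightest probe set. Orange bars are medians and dashed lines 1.5-fold. The list medians are 0.054, 0.033 and 0.026 for the related genes, 0.36 for endothelium and -1.04 for epidermis.

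Markers of cells that express the members moved by different amounts. Endothelial markers, of cells that carry Cxcr4 and Cxcl12, had a median of 0.36 over 8 of 8 measured genes. Of these, 3 (Tie1, Cdh5 and Pecam1) were at least 1.5-fold higher in the Sox11-null library, against 3.07% of all measured genes. By level group that share ran from 0.80% to 6.10%. The summed signal of the 8 markers was 5691 in Sox11 null and 4977 in wild type, and the receptor gene Kdr was at 1118 and 769 (0.56). Cldn5, a tight junction gene and the brightest of the list, went the other way with 1274 in Sox11 null and 1547 in wild type (-0.26), and Tek (0.011), Esam (0.14) and Flt1 (0.16, with -0.38 and 0.35 by its 2 other measured probe sets) had smaller differences. The part of endothelial cells in the Cxcr4 difference was not tested. Interneuron markers, of cells that express Reln, Calb2 and Cxcr4, had a median of -0.030 over 9 of 10 measured genes. Of the 9, 0 were beyond 1.5-fold, against 3.24% lower and 3.07% higher among all measured genes. Summed signals of all 10, the unmeasured Dlx6 included, were 10285 in Sox11 null and 10336 in wild type. Projection neuron markers had a median of -0.15 over 6 measured genes of 8, with 5 below 0 and 1 above. Tbr1, a factor of early cortical neurons including Cajal-Retzius cells, was at 483 and 554. Fezf2, with the largest difference of the list, went the other way at 217 in Sox11 null and 162 in wild type (0.44).

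Meningeal and fibroblast markers, of a source of Cxcl12, had a median of 0.20 over 10 of 10 measured genes. Of these, 1 (Foxc2, 0.64) was at least 1.5-fold higher, against 3.07% of all measured genes. Summed signals of the list were 64830 in Sox11 null and 63077 in wild type. Microglial and immune markers, whose cells carry Cxcr4, had a median of -0.069 over 6 of 8, and the T cell gene Cd3e was under the floor on both arrays. Of 8 measured epidermal markers, 5 (Dsc1, Krt10, Ivl, Krt1 and Lor) were at least 1.5-fold lower in Sox11 null, against 3.24% of all measured genes. The median was -1.04, with summed signals of 21419 and 39895 in Sox11 null and wild type. Not all went this way, since Krt5 (4737 and 4461, 0.11) was slightly higher and Krt14 (2303 and 3062, -0.39) was within 1.5-fold. Trp63, the relative of Trp73 in basal epidermis, was at 746 and 802 (-0.083). The part of any of these tissues in the differences of Reln and Trp73 was not tested.

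Of markers of other neural tissue that expresses Reln, Calb2 or Lhx factors, thalamic genes had a median of -0.12 over 5 of 6 measured, with Tcf7l2 at 2829 in Sox11 null and 3236 in wild type (-0.17, but 0.61 and 0.65 by its 2 other measured probe sets). Sensory ganglion genes had a median of -0.34 over 4 of 6. Of these, 1 was at least 1.5-fold lower, Avil (141 and 264, -0.88), against 3.24% of all measured genes. In the list of cortical hem and choroid plexus, a source of Cajal-Retzius cells and its neighbour, the median was -0.14. Of 8 genes 4 were measured, with 0 beyond 1.5-fold, against 3.24% lower and 3.07% higher among all measured genes. Ttr was at 17539 in Sox11 null and 21816 in wild type (-0.29) and Folr1 was at -0.26, while Otx2 (-0.021) and Aqp1 (0.044) were near 0. The hem factor Lmx1a was below the median on both arrays (65.5 in Sox11 null and 99.0 in wild type), as was Wnt2b (93.1 and 77.2). The other lists, in Sox11 null against wild type, had medians of 0.070 (skeletal muscle, 8 of 8 measured), -0.33 (cartilage and bone, 5 of 8), -0.78 (salivary glands, 8 of 8), -0.74 (lens and retina, 4 of 8) and 0.34 (olfactory tissue, 4 of 7). The 4 measured genes of lens and retina were all crystallin genes of the lens. Rcvrn and Crx of the retina lay below the median on both arrays. Of the 8 kidney and liver genes, only Ttr, which the choroid plexus also makes, was measured.

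Other scalings moved Reln and Cxcr4 little, and averaging the probe sets of a gene moved Reln, Trp73 and Lrp8 more. Reln ran from -0.47 to -0.43 and Cxcr4 from 0.46 to 0.52 under the 5 other ways of centring, normalizing and flooring. The floor settings among these could not move either gene, since both signals lie well above the floors. Averaging all probe sets of a gene gave -0.22 for Reln, -0.12 for Trp73 and 0.089 for Lrp8. For Reln the average takes in 1458020_at, which was raised to the floor on both arrays (0.0085), so -0.22 holds no second measurement. A floor at the median put Trp73 at -0.48, within 1.5-fold.

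**Figure D5:**
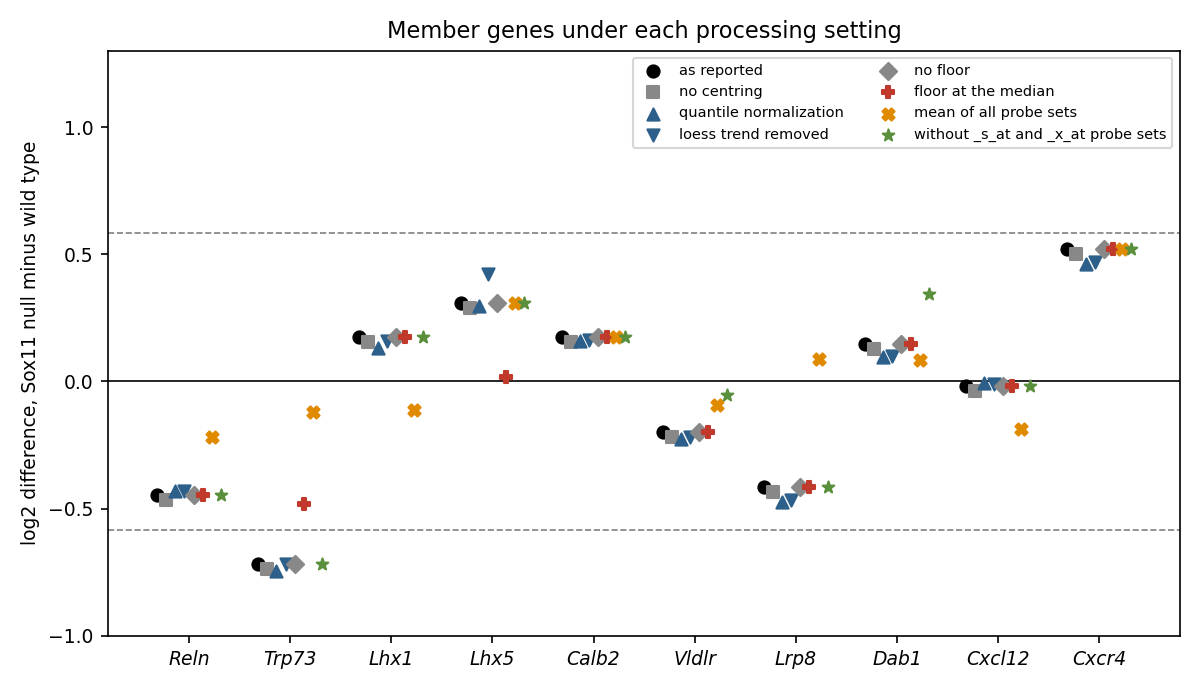
Log2 difference, Sox11 null minus wild type (vertical axis), of each member gene as reported and under 7 other settings, with dashed lines at 1.5-fold. Trp73 runs from -0.75 with quantile normalization to -0.12 with all probe sets averaged, and Lrp8 passes above 0 with all probe sets averaged (0.089).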

How the data were processed

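Expression was measured on 2 Affymetrix mouse arrays, 1 per genotype, with biotinylated cRNA from total RNA, per the labels' protocols. The deposited values are signal intensities per probe set on a linear scale. Per the submitters' processing notes they were made with Affymetrix Expression Console, and its summary algorithm is not stated there. Both arrays have the same mean after trimming 2% at each end (500.002). Of 45101 probe sets, 64 controls were left out, and 34945 name 1 gene, 932 several and 9160 none in the platform annotation. Symbols of 34741 were updated through a RefSeq table of GRCm38.p6, and 204 kept theirs. That table's build is the one of the printed promoter windows, and the build behind the array's annotation is not stated.

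Signals were taken to log2, and 0.020 was added to the Sox11-null array. Values under the floor (53.3 after this shift in Sox11 null, 52.9 in wild type) were raised to it. The brightest probe set stands for a gene. The number of arrays limits the precision. No detection call was used, and no test was run, since each genotype has 1 array. The steps were tested on simulated data.

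The members and lists were chosen with earlier results of these data known. The rule for named genes takes every member probe set, genes of the related lists beyond 1.5-fold or else the 2 brightest and 2 largest differences, and at most 2 genes per marker list, besides Sox11. Other genes named were chosen after their values were seen. With 1 value per genotype, no gene was ranked by likeness of pattern. Alternatives were no centring, quantile normalization, a loess trend removed, no floor or the median as floor, no filter or the 75th percentile, 2-fold, all probe sets averaged, and leaving out the _s_at and _x_at types. Analyses used Python 3.11, numpy 2.4.6, pandas 2.3.3 and statsmodels 0.14.6.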

Additional observations from a re-analysis of the deposited data

How the results depend on the processing

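No paired analysis was possible because each genotype has 1 array and no test was run. Of 200 values of single member probe sets and genes under the alternatives, 194 moved by less than 0.39 on the log2 scale, the pooled SD among probe sets of 1 gene, and none of the values beyond 1.5-fold turned its direction. The 6 that moved further were Trp73 (-0.12) and Lrp8 (0.089) with all probe sets averaged, and 4 dim probe sets (1 each of Trp73, Lhx1, Lrp8 and Cxcl12) that came to 0.019 with the floor at the array median. Many of the 200 values could not move, so the 194 is no measure of stability. A gene value mostly repeats that of its brightest probe set, and the floor settings leave bright signals unchanged. Lhx1 was at -0.11 with all probe sets averaged. Probe sets 1458020_at of Reln and 1451156_s_at of Vldlr, near the floor, changed sign in 2 settings each. The count of member genes at least 1.5-fold lower in Sox11 null was 1 (Trp73) as reported, and 0 with the median as floor, with all probe sets averaged, with the filter at the 75th percentile and at 2-fold. Over member probe sets it was 0 in the same settings except averaging, which does not apply there. Without a filter, 1 member probe set, of Lrp8, was higher. The median over member probe sets was -0.019 with the filter at the 75th percentile, which leaves fewer probe sets. Among other reelin pathway genes, 1 was higher (Thbs1) and 1 lower (Cdk5r1) without centring, 1 was higher (Thbs1) and the median was 0.16 with all probe sets averaged, and 0 were higher at 2-fold. Among other Cajal-Retzius genes, 1 was higher (Eomes) with all probe sets averaged and 1 lower (Zic2, unmeasured otherwise) without a filter. In the Cxcl12 axis, Grk3 was the 1 higher gene with all probe sets averaged and without the _s_at and _x_at types, where the median was 0.17. Where no value above shows a reason, the cause was not tested. Of all measured genes, 401 were lower and 380 higher as reported, against 264 and 274 with the median as floor, 806 and 717 without a filter, and 139 and 132 with the filter at the 75th percentile. No setting moved the median of all genes by over 0.1. Signals near the floor have no replicate to show their error.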

Other observations

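Across all genes with several measured probe sets, the dimmer ones leaned upward in the Sox11-null library. Of 8272 such other probe sets, 13.5% were at least 1.5-fold higher in Sox11 null and 3.80% at least 1.5-fold lower, with a median of 0.084. The brightest probe sets of the same 5155 genes had 2.15% higher, 1.51% lower and a median of -0.0054. Among the 4 members with several measured probe sets, the 8 other probe sets had 0 beyond 1.5-fold and a median of -0.15. The arrays also differed in the 3' to 5' ratio of beta-actin (1.16 in Sox11 null, 1.78 in wild type) and of Gapdh (0.816 and 0.922), and the part of RNA integrity in the lean was not tested.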
